A study of Rattus norvegicus with 105 samples.

Results

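The proteasome genes described here are the 42 gene symbols, of 20946 in the table, that start with Psma, Psmb, Psmc, Psmd, Psme, Psmf or Psmg and go on with a digit. They were read by 43 detector probes, since Psme3 has a pair of them. The rule uses names only and no measured value. Expression had been measured with TempO-Seq, in which paired detector oligonucleotides are joined on each RNA, amplified and counted, after 24 hours of exposure in primary rat hepatocytes of 1 commercial lot (female, Sprague-Dawley). The treated groups were nitroethane (NE), nitromethane (NM) and 1-nitropropane (1NP), each at 8 concentrations between 0.003 and 10 mM. The other groups were benzo[a]pyrene (BAP, an agonist of the aryl hydrocarbon receptor) at 50 µM, CITCO (10 or 20 µM), rifampin (20 or 40 µM), WY-14643 (an agonist of PPARα), plain medium and DMSO. Each of the 35 groups had 3 wells, 105 libraries in all. Set 1 (72 libraries) held NE, NM and the other compounds with their own medium and DMSO, and set 2 (33 libraries) held 1NP, WY-14643, medium and DMSO. Each compound was compared with the DMSO and with the medium of its own set. All wells came from 1 cell lot, so a p-value here reflects how wells varied, with nothing on variation among animals. Concentration follows the plate row in the library names (0.003 mM in row A to 10 mM in row H, medium in row A, DMSO in row B), so concentration and row cannot be told apart. The sample titles give the nitroalkanes in µM and the treatment protocol in mM, which was followed; the labels also disagree on the DMSO percentage and on the WY-14643 concentration of set 2, and do not say whether nitroalkane wells held DMSO.

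The proteasome degrades proteins tagged with ubiquitin. Its core particle (20S) is a barrel of alpha and beta rings, of which Psmb5, Psmb6 and Psmb7 carry the constitutive catalytic sites. Under interferon signalling, cells can replace them by the immunoproteasome subunits Psmb8 (in place of Psmb5), Psmb9 (in place of Psmb6) and Psmb10 (in place of Psmb7), which favour peptides for antigen presentation. A regulatory particle (19S) caps the barrel: its base holds the ATPases Psmc1 to Psmc6 that unfold substrates, and its lid, with Psmd3, Psmd6, Psmd7, Psmd11, Psmd12 and Psmd13, removes ubiquitin. The activators Psme1 and Psme2 (PA28), Psme3 (PA28 gamma) and Psme4 (PA200) can take the place of that cap, and the chaperones Psmg1 to Psmg4, Psmd5, Psmd9 and Psmd10 help to assemble the particles. Hepatocytes express the constitutive particle at high levels and the immunoproteasome mainly under inflammatory signals.

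The members fall into 5 alpha-ring probes, 3 structural and 2 constitutive catalytic beta-ring probes (Psmb5 and Psmb7), 3 immunoproteasome catalytic probes, 5 base ATPase probes, 3 other base probes, 6 lid probes, 5 activator probes, 7 assembly chaperone probes, the inhibitor Psmf1 (PI31), and the tissue-restricted core subunits Psma8 and Psmb11. Psmc3ip matches the rule by name but is a cofactor of meiotic recombination and no subunit. Psma3l is a synonym of Psma3 in RefSeq. No probe bore the symbol Psma1, Psma2, Psmb4, Psmb6, Psmc5, Psmd8 or Psmd14, so these genes could not be read under those names. Psmb9 thus has no constitutive counterpart here. In the set 1 fits 39 of the 43 probes passed the filter on low counts. Those that did not were Psma8 (0 counts in 104 of 105 libraries), Psmb11 (mean level 0.392 CPM, reads scaled to a fixed library total), Psmc6 (0 counts in 83 libraries) and Psmd2 (0.401 CPM), and of these Psmd2 passed in the 1NP fits, where 40 were tested. A count of 3 stands for 0.548 CPM in the shallowest library and 0.27 CPM in the deepest, by counting error only, so these genes lay near the floor of detection. Many members, among them Psma6, Psmb3 and Psme3, have processed pseudogenes in RefSeq, and reads of such copies could have been counted with them.

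The promoters of the immunoproteasome catalytic genes are shown because Psmb10 fell the most of all members at NE 10 mM and Psmb8 and Psmb9 are its companions. Each line gives the 300 bases around the annotated gene start in RefSeq (build GRCr8), 5′ to 3′ on the gene's strand, with motif matches in capitals.
Psmb10 (chr19:50743243-50743542, minus strand): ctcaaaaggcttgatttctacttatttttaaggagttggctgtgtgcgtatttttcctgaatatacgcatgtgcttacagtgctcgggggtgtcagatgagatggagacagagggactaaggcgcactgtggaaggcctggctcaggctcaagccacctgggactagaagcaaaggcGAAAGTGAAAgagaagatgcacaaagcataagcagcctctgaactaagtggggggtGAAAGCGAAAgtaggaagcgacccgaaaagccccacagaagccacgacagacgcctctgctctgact
Psmb8 (chr20:4656982-4657281, minus strand): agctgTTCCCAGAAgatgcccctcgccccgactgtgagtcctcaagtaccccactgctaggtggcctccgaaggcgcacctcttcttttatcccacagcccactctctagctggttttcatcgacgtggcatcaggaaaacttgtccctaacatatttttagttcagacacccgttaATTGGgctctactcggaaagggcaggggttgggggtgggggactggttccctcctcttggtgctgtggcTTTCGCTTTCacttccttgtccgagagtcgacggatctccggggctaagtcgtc
Psmb9 (chr20:4668750-4669049, plus strand): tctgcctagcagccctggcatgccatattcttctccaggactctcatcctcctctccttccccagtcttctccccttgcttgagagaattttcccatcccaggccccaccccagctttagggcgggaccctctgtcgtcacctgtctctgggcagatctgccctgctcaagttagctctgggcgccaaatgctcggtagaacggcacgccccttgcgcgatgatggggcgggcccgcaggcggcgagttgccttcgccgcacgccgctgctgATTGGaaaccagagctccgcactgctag
The capitals mark matches, on either strand and with no overlap between motifs, to the interferon-stimulated response element (a pair of GAAA spaced by 2 bases of any kind; 2 in Psmb10 and 1 in Psmb8), the gamma-activated site TTCNNNGAA (1 in Psmb8) and the CCAAT box CCAAT (1 each in Psmb8 and Psmb9). Promoters were found for 37 of the 42 symbols, and the same motifs were searched in all 33469 promoters of the table. The interferon-stimulated response element stood in 7 of the 37 members (18.9%: Psma4, Psmb3, Psmb8, Psmb10, Psmd7, Psme2 and Psmg4) against 3.92% of all promoters, and TTCNNNGAA in 4 members (10.8%) against 8.87%. The antioxidant response element TGACNNNGC, bound by NRF2, stood in 6 members (16.2%: Psmb2, Psmb5, Psmd1, Psmd3, Psmd9 and Psme4) against 12.1%, and CCAAT in 19 (51.4%) against 37.5%. A match describes these letters in this window and shows no binding.

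Total counts per library ran from 5475419 to 11122665. There were 5 libraries that stood apart, by the lowest correlation with the other wells of their group or by counts in most probes: NM 10 mM replicate 3, NM 3 mM replicate 1, NM 1 mM replicate 1, 1NP 10 mM replicate 3 and NE 10 mM replicate 2 (counts in 21627 of 22253 probes, against a median of 13792). Counts of calls that change without them are given both ways in most comparisons. For NE 10 mM against its controls the range over single wells left out is given instead. Of the hepatocyte markers all 7 were expressed, while the 8 lymphocyte and the 6 endothelial markers had a median of 0 across libraries, as did 7 of 11 Kupffer cell and macrophage probes. In these bulk wells, fewer cells of a type and less RNA per cell cannot be told apart.

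NE gave the most calls of proteasome genes among the nitroalkanes at 10 mM, and also the most calls over all probes. Against DMSO 28.9% of all probes were called for NE, 7.19% for NM and 2.17% for 1NP. Against medium these shares were 34%, 0.662% and 10.2%. Psmb10, the immunoproteasome subunit that replaces Psmb7, fell, while Psmd6, Psmd13 and Psma3l of the constitutive particle rose. Against DMSO, edgeR's quasi-likelihood test (p-values adjusted by Benjamini-Hochberg for all probes tested, threshold 0.05) called 6 of 39 members higher and 7 lower, where it called 13.3% of all 12326 probes higher and 15.6% lower (28.9% in either direction). Against medium it called 7 higher and 6 lower, where 16.6% of all 12339 probes were higher and 17.4% lower (34% in either direction). The members' count was thus near that of all probes in both directions. The median member changed by -0.12 log2 against DMSO and -0.16 against medium, where the median of all probes was 0.03 in each case. With single wells left out, edgeR called 9 to 13 members against DMSO and 10 to 16 against medium. DESeq2 called 15 members against DMSO and 17 against medium. Its share over all probes is not reported here, so these counts are not read against the background.

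**Figure D1:**
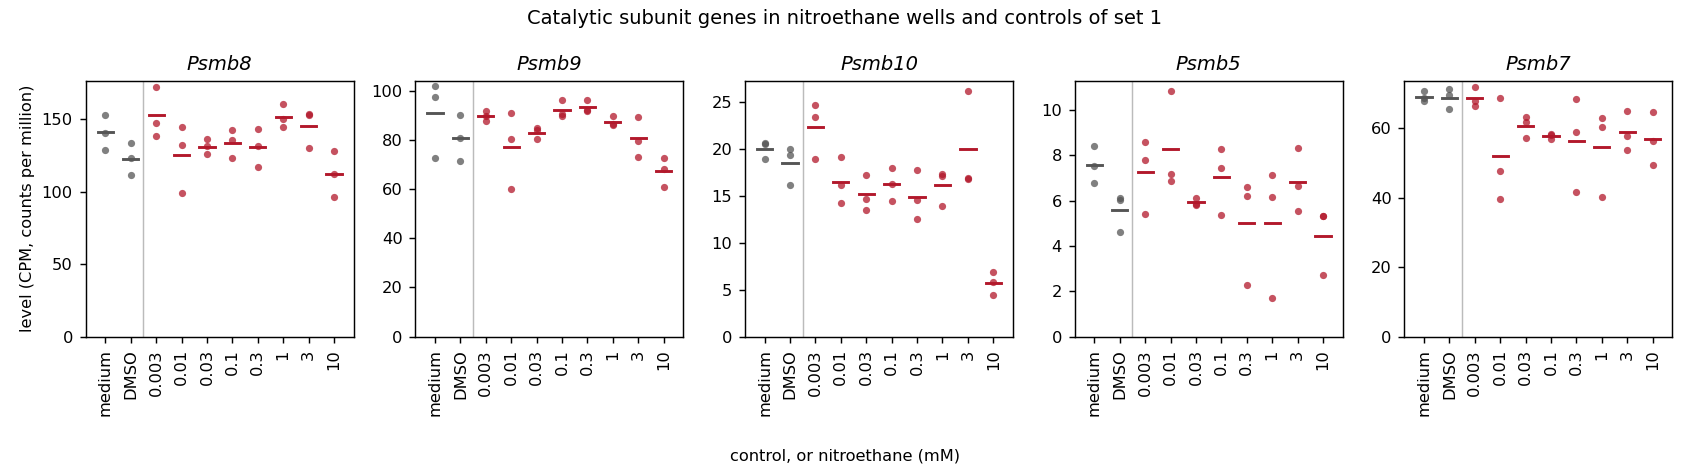
Level of the immunoproteasome catalytic genes (Psmb8, Psmb9, Psmb10) and of Psmb5 and Psmb7 in CPM (y axis, from 0) in medium, DMSO and NE wells of set 1 by concentration in mM (x axis); points are wells, bars are means of 3 wells. Psmb10 lies between 4.39 and 6.88 CPM at 10 mM, below every other Psmb10 well shown, while the 10 mM wells of Psmb8 and Psmb9 overlap their DMSO wells.

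Among the immunoproteasome catalytic subunits, Psmb10 had 5.82, 4.39 and 6.88 CPM in NE 10 mM wells, against 18.9, 20.5 and 20.6 CPM in medium wells and 16.2, 19.4 and 20.0 CPM in DMSO wells. The NE wells lay far below both controls with no overlap. The log2 change was -1.74 ± 0.23 (SE) against DMSO (edgeR adjusted p = 2.04e-06) and -1.79 ± 0.23 against medium (edgeR adjusted p = 8.19e-07), and the call held in all 12 alternative settings in each case (-1.93 to -1.51 and -1.99 to -1.58). Psmb9 had 72.7, 61.1 and 68.2 CPM in NE wells, against 102, 72.9 and 97.8 CPM in medium wells and 80.9, 71.7 and 90.2 CPM in DMSO wells. All NE wells were below the medium wells but not below all DMSO wells: the change was -0.42 ± 0.14 against medium (edgeR adjusted p = 0.0186) and -0.31 ± 0.13 against DMSO (edgeR adjusted p = 0.0662). The Psmb9 call was lost without NE 10 mM replicate 2 (-0.29), medium replicate 1 (-0.34) or medium replicate 3 (-0.38). Psmb8 had 112, 96.3 and 128 CPM in NE wells, against 129, 141 and 153 CPM in medium wells and 123, 112 and 134 CPM in DMSO wells. Its changes of -0.32 ± 0.15 against medium (edgeR adjusted p = 0.102) and -0.18 ± 0.15 against DMSO (edgeR adjusted p = 0.388) were not called.

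The constitutive catalytic counterparts that were read, Psmb5 and Psmb7, were not called. Psmb7, which Psmb10 replaces, had 56.3, 49.5 and 64.8 CPM in NE 10 mM wells, against 68.8, 67.9 and 70.7 CPM in medium wells and 71.4, 69.7 and 65.6 CPM in DMSO wells. The NE wells lay below both controls, by -0.27 ± 0.20 against medium (edgeR adjusted p = 0.311) and -0.32 ± 0.20 against DMSO (edgeR adjusted p = 0.229). Psmb5 was read at a low level, 2.72, 5.33 and 5.33 CPM in NE wells, against 7.54, 6.76 and 8.43 CPM in medium wells and 4.62, 6.11 and 6.02 CPM in DMSO wells. Its change was -0.78 ± 0.40 against medium (edgeR adjusted p = 0.143) and -0.39 ± 0.41 against DMSO (edgeR adjusted p = 0.505), with 95% intervals of -1.57 to 0.01 and -1.20 to 0.41. The log2 difference of the Psmb10 and Psmb7 probes within a well was -3.22 ± 0.11 (SD, n = 3) at NE 10 mM, against -1.76 ± 0.07 in medium and -1.87 ± 0.21 in DMSO. It is a difference of probe signals and no ratio of molecules.

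Of the alpha ring, 2 of 5 probes rose against each control and none fell. Psma3l had 634, 477 and 553 CPM in NE 10 mM wells, against 365, 323 and 340 CPM in medium wells and 401, 348 and 318 CPM in DMSO wells. Psma6 had 257, 213 and 203 CPM in NE wells, against 146, 144 and 135 CPM in medium wells and 164, 135 and 132 CPM in DMSO wells. Neither gene's NE wells overlapped a control: Psma3l changed by 0.60 ± 0.22 against DMSO (edgeR adjusted p = 0.044) and 0.71 against medium, and Psma6 by 0.59 ± 0.18 (edgeR adjusted p = 0.0136) and 0.67. Both calls against DMSO were lost without NE 10 mM replicate 1 (0.42 and 0.41), DMSO replicate 2 (0.58 and 0.55) or DMSO replicate 3 (0.51 and 0.52), that of Psma3l also without NE 10 mM replicate 3 (0.58). Against medium the loss of NE 10 mM replicate 1 ended both (0.53 and 0.48), and that of medium replicate 2 ended Psma3l (0.66). Psma4, Psma5 and Psma7 changed by -0.21 to -0.07 over both controls. The structural beta subunits were not called: Psmb2 changed by 0.40, Psmb1 by 0.17 and Psmb3 by -0.37 against DMSO.

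In the regulatory particle the lid held the largest rise. Psmd6, a lid subunit next to the ATPase ring, had 106, 82.2 and 79.8 CPM in NE 10 mM wells, against 34.8, 31.7 and 36.7 CPM in medium wells and 42.7, 34.2 and 23.9 CPM in DMSO wells. Every NE well was well above every control well. The change was 1.36 ± 0.31 against DMSO (edgeR adjusted p = 0.00139) and 1.39 ± 0.29 against medium (edgeR adjusted p = 0.000527), and it was called in all 12 alternative settings of each (1.14 to 1.57 and 1.16 to 1.52). Psmd13, another lid subunit, had 188, 177 and 149 CPM in NE wells, against 88.0, 87.7 and 80.2 CPM in medium wells and 104, 107 and 73.9 CPM in DMSO wells. It too had no overlap, and rose by 1.00 ± 0.27 against medium (edgeR adjusted p = 0.00461) and 0.80 ± 0.27 against DMSO (edgeR adjusted p = 0.0306), the call against DMSO being lost without DMSO replicate 3 (0.63) or NE 10 mM replicate 1 (0.65). Psmd12 had 55.3, 62.4 and 46.1 CPM in NE wells, against 34.7, 36.6 and 33.9 CPM in medium wells and 36.1, 37.2 and 42.3 CPM in DMSO wells. Its change of 0.63 ± 0.22 against medium was called (edgeR adjusted p = 0.0309), but not without any 1 of the 3 medium wells or without NE 10 mM replicate 1 or 2 (0.54 to 0.65), and that of 0.44 ± 0.22 against DMSO was not. The other lid probes Psmd3, Psmd7 and Psmd11 changed by -0.42 to 0.77 against DMSO and were not called.

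The base moved the other way where it was called. Psmc3, an ATPase of the base ring, had 162, 167 and 196 CPM in NE 10 mM wells, against 231, 248 and 252 CPM in medium wells and 229, 237 and 265 CPM in DMSO wells. All NE wells were lower than all control wells, by -0.53 ± 0.13 against DMSO (edgeR adjusted p = 0.00322) and -0.48 ± 0.13 against medium (edgeR adjusted p = 0.00626). Psmc4, another of these ATPases, had 258, 216 and 287 CPM in NE wells, against 329, 326 and 329 CPM in medium wells and 331, 337 and 377 CPM in DMSO wells. It was called against DMSO only (-0.50 ± 0.14, edgeR adjusted p = 0.00755, and -0.36, adjusted p = 0.0517, against medium), and not without NE 10 mM replicate 2 (-0.32). Psmc1, Psmc2, Psmd1 and Psmd4 changed by -0.17 to 0.49 over both controls and were not called.

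Of the activators, Psme2, the partner of Psme1 in PA28 and like Psmb8 to Psmb10 known to respond to interferon, had 15, 13.7 and 19.8 CPM in NE 10 mM wells, against 28.2, 24.1 and 27.3 CPM in medium wells and 23.9, 27.2 and 26.4 CPM in DMSO wells. The NE wells lay below both controls, by -0.72 ± 0.22 against DMSO (edgeR adjusted p = 0.0169) and -0.70 ± 0.23 against medium (edgeR adjusted p = 0.0185). Both calls were lost without NE 10 mM replicate 2 (-0.54 and -0.53), and without DMSO replicate 2 (-0.69) or medium replicate 1 (-0.67). Psme1 changed by -0.36 against each control and was not called. Psme4 had 261, 279 and 287 CPM in NE wells, against 337, 345 and 356 CPM in medium wells and 324, 328 and 385 CPM in DMSO wells. Named after its value was seen, it was called lower against DMSO (-0.38 ± 0.13, edgeR adjusted p = 0.0333), not against medium (-0.33, adjusted p = 0.0592), and not without NE 10 mM replicate 1 (-0.41) or 2 (-0.30) or without DMSO replicate 2 (-0.42) or 3 (-0.31). The 2 probes of Psme3 changed by 0.08 and 0.23 against DMSO.

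Of the assembly chaperones 2 rose and 1 fell against each control. Psmg1, partner of Psmg2, had 76.8, 76.8 and 80.7 CPM in NE 10 mM wells, against 46.7, 49.0 and 58.6 CPM in medium wells and 53.5, 51.6 and 58.8 CPM in DMSO wells. It rose without overlap, by 0.60 ± 0.13 against medium (edgeR adjusted p = 0.00053) and 0.46 ± 0.12 against DMSO (edgeR adjusted p = 0.005), while Psmg2 changed by 0.39 and 0.33 and was not called. The Psmg1 call against DMSO was lost with no filter on low counts (0.44, edgeR adjusted p = 0.0836). Psmg3, partner of Psmg4, had 27.6, 25.4 and 31.6 CPM in NE wells, against 53.3, 59.6 and 56.7 CPM in medium wells and 44.4, 41.7 and 59.9 CPM in DMSO wells. It fell in every NE well, by -0.99 ± 0.17 against medium (edgeR adjusted p = 6.28e-05) and -0.83 ± 0.18 against DMSO (edgeR adjusted p = 0.000952). Psmg4 rose instead, by 1.51 ± 0.33 against DMSO and 1.37 ± 0.36 against medium, at a low level of 5.82, 7.32 and 4.55 CPM in NE wells, against 3.48, 1.38 and 1.82 CPM in medium wells and 2.25, 1.73 and 1.90 CPM in DMSO wells. Psmc3ip, the recombination cofactor, fell by -1.56 ± 0.27 against DMSO and -1.62 ± 0.27 against medium, with 2.97, 4.13 and 1.78 CPM in NE wells, against 8.70, 9.02 and 8.88 CPM in medium wells and 7.70, 8.87 and 8.14 CPM in DMSO wells. Psmg4 and Psmc3ip lie under the level of 10 CPM set for naming and were named after their values were seen. The inhibitor Psmf1 changed by 0.44 ± 0.31 against DMSO and was not called.

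**Figure D2:**
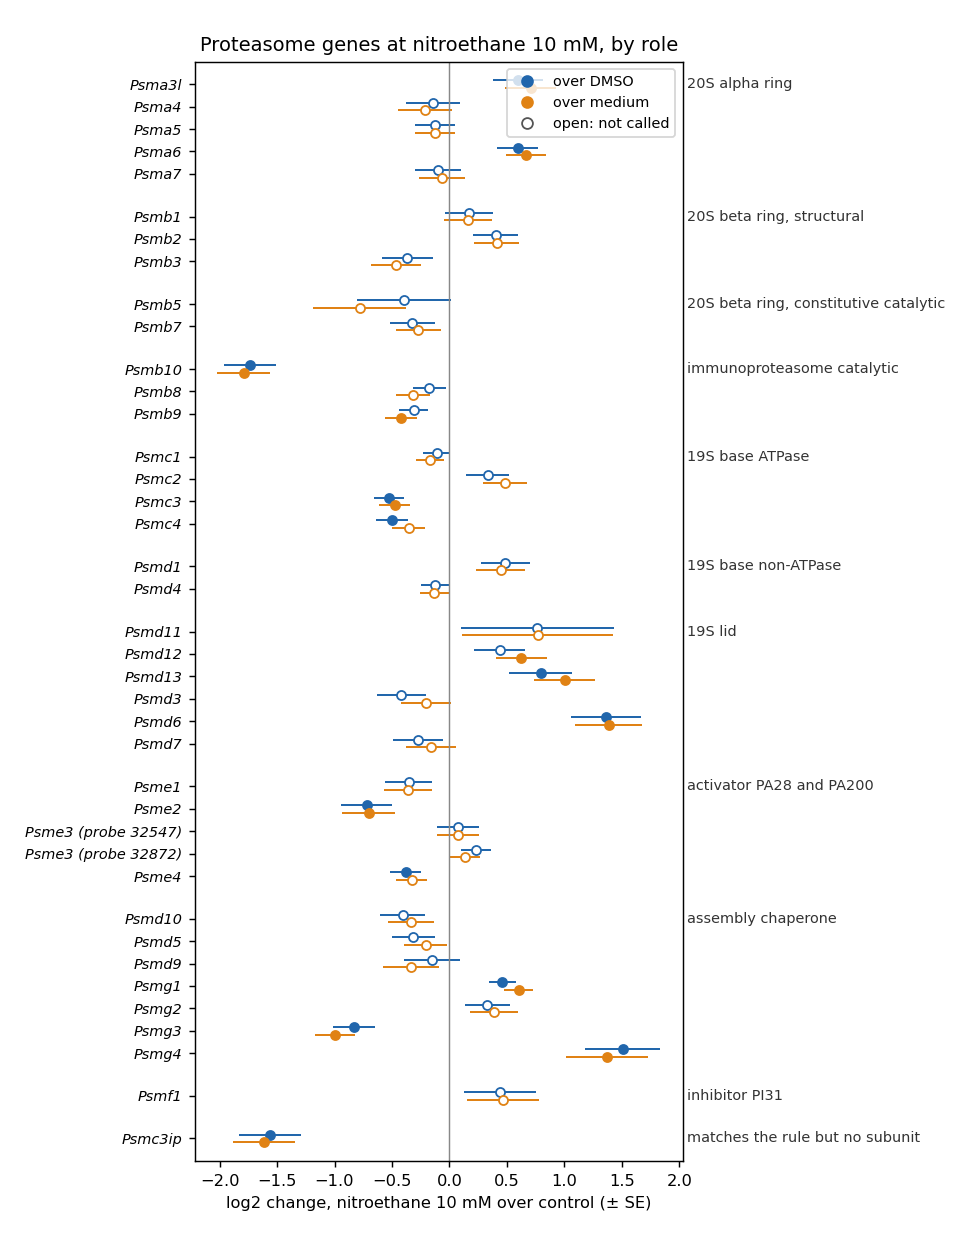
Log2 change of each tested member at NE 10 mM over DMSO (blue) and over medium (orange) of set 1 (x axis), with members grouped by role (y axis); bars are the approximate SE from edgeR, and filled points passed the adjusted p threshold of 0.05. Psmb10 (-1.74 over DMSO) and Psmc3ip (-1.56) lie farthest to the left, and Psmg4 (1.51) and Psmd6 (1.36) farthest to the right.

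Over all 35 groups, NE 10 mM had both the lowest mean log2 CPM of Psmb8, Psmb9 and Psmb10 (5.17 ± 0.20, SD, n = 3) and the highest mean over the 20 constitutive core and regulatory particle probes at 10 CPM or more (7.33 ± 0.10). That highest mean was not a rise of most constitutive probes. The median change of the 22 tested at NE 10 mM was -0.10 against DMSO and -0.10 against medium. It also lay within the SD of the BAP mean. Among the other groups the immunoproteasome mean ran between 5.62 ± 0.44 at NM 10 mM and 6.20 ± 0.07 with BAP. The constitutive mean ran between 6.90 ± 0.11 at 1NP 0.003 mM and 7.29 ± 0.13 with BAP, and the constitutive mean at NE 10 mM lay within that SD. Without the libraries that stood apart NE 10 mM kept both places (5.28 and 7.38 over 2 wells), and the next lowest immunoproteasome mean was that of DMSO of set 2 (5.66). For Psmb10 alone the group means in CPM started with 5.70 ± 1.25 at NE 10 mM, 13.3 ± 5.03 at NM 10 mM and 13.7 ± 4.5 at 1NP 10 mM and ended with 25.2 ± 3.35 at 1NP 0.1 mM and 27.5 ± 1.87 with BAP, and the step between NE 10 mM and NM 10 mM was the only one larger than the SD of both its neighbours. Without the libraries that stood apart the lowest means were 6.35 CPM at NE 10 mM and 14.9 CPM at NE 0.3 mM. Psmb8 group means ran between 99.6 ± 8.95 (DMSO, set 2) and 161 ± 49 CPM (1NP 1 mM), and those of Psmb9 between 64.4 ± 3.14 (CITCO 20 µM) and 99.5 ± 3.22 CPM (NM 0.1 mM). No step between neighbours was larger than the SD of both for Psmb8, and for Psmb9 only that between WY-14643 (70.1 ± 3.03 CPM) and DMSO (73.4 ± 3.18 CPM) of set 2 was, slightly.

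Gene groups outside the rule were read in the same comparison, as lists chosen with results known. Of all probes, 13.3% were higher and 15.6% lower than in DMSO (28.9% in either direction). Against medium 16.6% were higher and 17.4% lower (34% in either direction). Of 19 probes for proteasome partners (shuttle factors, deubiquitinases and regulators), 4 were higher and 2 lower at NE 10 mM than in DMSO, and 5 higher and 2 lower than in medium. Taken in either direction, the partners' calls were near the share of all probes. Nfe2l1, a transcription factor that drives subunit genes when the proteasome is inhibited, had a change of -0.53 ± 0.19 against DMSO and -0.72 ± 0.19 against medium, both called. Of 15 antigen presentation and interferon probes, 0 were higher and 8 lower than in DMSO, and 1 higher and 5 lower than in medium. Those lower against both controls were Gbp2 (-1.45 and -1.37), Ubd (-1.38 and -0.96), Tapbp (-1.17 and -1.04), the interferon regulator Irf1 (-1.07 and -0.57) and Ifi27 (-0.53 and -0.63), given for DMSO and then medium. Of 14 NRF2 target probes, 8 rose and 1 fell against DMSO, and 8 rose and 0 fell against medium, with Gsta3 at 3.83 and Nqo1 at 1.42 against DMSO. Of 10 heat shock probes, 1 and 2 rose and 0 and 1 fell against DMSO and medium. Cell markers moved with these changes: the summed hepatocyte markers were 5334 to 7184 CPM in NE 10 mM wells, against 7490 to 9152 CPM in medium and 11999 to 12630 CPM in DMSO wells, and the summed cholangiocyte markers 219 to 278 CPM in NE 10 mM wells, against 627 to 721 CPM in medium and 541 to 621 CPM in DMSO wells. Of the 7 hepatocyte markers 1 was higher and 3 lower than in DMSO, and 4 higher and 1 lower than in medium, and all 3 cholangiocyte probes were lower than in each. Their part in the proteasome changes was not tested.

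At NE 3 mM the proteasome genes were near their controls. Against DMSO 0 of 39 members were called by edgeR (5 at an unadjusted p under 0.05, and 1 by DESeq2), where 6.08% of all probes were called, and without NE 3 mM replicate 1 the count was 4. Against medium 2 members were called, where 11.5% of all probes were. Psmc2, a base ATPase, had 408, 423 and 394 CPM in NE 3 mM wells, against 300, 284 and 258 CPM in medium wells, with no overlap and a change of 0.62 ± 0.19 (edgeR adjusted p = 0.0343). Psmc3ip, under 10 CPM and named after its value was seen, fell by 0.83 on the log2 scale (edgeR adjusted p = 0.0353). Leaving out any 1 medium well, or NE 3 mM replicate 2 or 3, ended both calls, with counts of 0, and without NE 3 mM replicate 1 the count was 6 with neither of them (Psmc2 0.62, Psmc3ip -0.75). Psmb10 had 16.9, 16.8 and 26.2 CPM in NE 3 mM wells and changed by 0.13 ± 0.21 against DMSO and 0.08 ± 0.21 against medium, and it was called at no NE concentration other than 10 mM. Psmb8 and Psmb9 changed by 0.26 and 0.02 against DMSO. From 0.003 to 1 mM, 1 of 234 tests of a member against DMSO was called, where 3.31% of all were: Psme4 at 0.3 mM (-0.46 ± 0.13, edgeR adjusted p = 0.0429), which was lost without any 1 DMSO replicate or without any 1 replicate number of the NE wells. Against medium 0 of 234 were called (19 at an unadjusted p under 0.05, and 0 by DESeq2), where 0.0446% of all were.

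Over the 8 NE concentrations without a control, the slope per step of concentration was called for 4 of 39 members, where it was called for 26.1% of all probes. Psmc2 rose by 0.09 ± 0.02 per step (edgeR adjusted p = 0.00527) and the chaperone Psmg1 by 0.05 ± 0.02 (edgeR adjusted p = 0.00864). Psme1 fell by 0.08 per step (edgeR adjusted p = 0.0193) and Psmc3ip by 0.16 (edgeR adjusted p = 0.0058). All 4 calls were lost without replicate 1 of every concentration, and that of Psme1 also without replicate 2 or 3. Psmb10 had a slope of -0.11 that was not called, its levels from 0.003 to 3 mM lying between 12.5 and 26.2 CPM with no order by concentration.

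NM changed no proteasome gene past the threshold at 10 or 3 mM. At 10 mM 0 of 39 members were called against DMSO (3 at an unadjusted p under 0.05, and 0 by DESeq2), where edgeR called 7.19% of all probes, and 0 against medium (4 at an unadjusted p under 0.05, and 1 by DESeq2), where it called 0.662%. At 3 mM 0 were called against DMSO (5 at an unadjusted p under 0.05, and 0 by DESeq2; 0.679% of all probes) and 0 against medium (10 at an unadjusted p under 0.05, and 0 by DESeq2; 2.32%). Psmb10 had 14.6, 17.4 and 7.68 CPM in NM 10 mM wells and changed by -0.56 ± 0.29 against DMSO and -0.63 ± 0.29 against medium, neither called, and by -0.28 and -0.34 without replicate 3. Its low well, replicate 3, is among the libraries that stood apart, and so is NM 3 mM replicate 1. Both shared a set of low members: Psmb7 had 65.8, 65.4 and 15.2 CPM at 10 mM and 15.4, 58.3 and 57.0 CPM at 3 mM, Psme2 had 24.7, 21.8 and 4.17 CPM at 10 mM and 6.93, 24.6 and 25.8 CPM at 3 mM, and Psmb5 was down to 0.39 and 1.21 CPM in these 2 wells. Without them 1 member was called at 10 mM against medium, 0 against DMSO, and 1 at 3 mM against each control. From 0.003 to 1 mM, 0 of 234 tests were called against DMSO (4 at an unadjusted p under 0.05, and 0 by DESeq2; 2.31% of all tests), with 3 without the libraries that stood apart, and 0 against medium (3 at an unadjusted p under 0.05, and 0 by DESeq2; 0.00136%). The slope over the 8 NM concentrations was called for 2 of 39 members, where it was called for 9.88% of all probes: Psmd12 of the lid rose by 0.08 ± 0.02 per step (edgeR adjusted p = 0.00366) and Psmc2 by 0.06 ± 0.01 (edgeR adjusted p = 0.00319). Without replicate 2 of every concentration neither was called (0.09 and 0.04), and without replicate 3 Psmd12 was not (0.07).

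For 1NP few members were called at the high concentrations. At 10 mM 1 of 40 members was lower than in DMSO of set 2, where 2.17% of all probes were called. Psmd10 (gankyrin, a chaperone of the base) had 25.4, 23.2 and 23.2 CPM in 1NP wells, against 44.3, 41.3 and 37.8 CPM in DMSO wells, with no overlap and a change of -0.83 ± 0.21 (edgeR adjusted p = 0.0376). It was lost without any 1 of the DMSO wells or without 1NP 10 mM replicate 1 or 2 (-0.88 to -0.77). Against medium of set 2, 1 member was higher, where 10.2% of all probes were called: Psma3l had 357, 365 and 501 CPM in 1NP wells, against 292, 205 and 280 CPM in medium wells (0.74 ± 0.23, edgeR adjusted p = 0.0451). The highest of these wells is replicate 3, which stood apart, and without it the change was 0.51 and no member was called. That call was also lost without medium replicate 4 (0.77, with 4 other members called) or 5 (0.56, with 0 called), and the count was 4 without 1NP 10 mM replicate 1 and 2 without medium replicate 6. At 3 mM 0 of 40 were called against DMSO (10 at an unadjusted p under 0.05, and 1 by DESeq2; 0.57% of all probes) and 0 against medium (2 at an unadjusted p under 0.05, and 0 by DESeq2; 0.223%), with 1 against medium without medium replicate 6. Psmb10 had 17.8, 14.5 and 8.91 CPM in 1NP 10 mM wells, and changed by -0.39 ± 0.23 against DMSO and -0.68 ± 0.24 against medium (edgeR adjusted p = 0.0632), and by -0.16 and -0.48 without replicate 3. The slope over the 8 1NP concentrations was called for 0 of 40 members (5 at an unadjusted p under 0.05, and 1 by DESeq2), where it was called for 4.77% of all probes.

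More members were called against DMSO at the lowest 1NP concentration than at 3 or 10 mM, a difference between concentrations that was not tested. From 0.003 to 1 mM, 16 of 240 tests of a member against DMSO were called, where 4.83% of all tests were, and 13 of the 16 were at the lowest concentration, 0.003 mM, where 20% of all probes were called. There Psmd6 had 6.06, 13.6 and 18.7 CPM in 1NP wells, against 55.3, 44.4 and 45.5 CPM in DMSO wells, with no overlap and a change of -2.02 ± 0.63 (edgeR adjusted p = 0.0308). The other members lower were Psmd10 (-1.23), Psmd13 (-1.15), Psma3l (-1.02), Psmd1 (-0.99), Psmb2 (-0.89), Psma6 (-0.77), Psmb1 (-0.57), Psmd12 (-0.52) and Psma5 (-0.39), and those higher were Psmg3 (0.86), Psmb8 (0.55) and Psmd9 (0.41). At 0.1 mM Psmb8 was higher (0.59) and Psmd10 lower (-0.83), and at 1 mM Psmb8 was higher (0.65). Against medium of set 2, 0 of the 240 tests were called (35 at an unadjusted p under 0.05, and 3 by DESeq2), where 0.0467% of all were. The count against DMSO ran between 2 without replicate 2 and 39 without replicate 3 of every concentration, and was 5 without replicate 1 and 10, 8 and 9 without DMSO replicate 4, 5 and 6. Against medium it was 1 without medium replicate 4 and 2 without medium replicate 6. The 0.003 mM wells and the medium wells of set 2 lay in the same plate row.

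**Figure D3:**
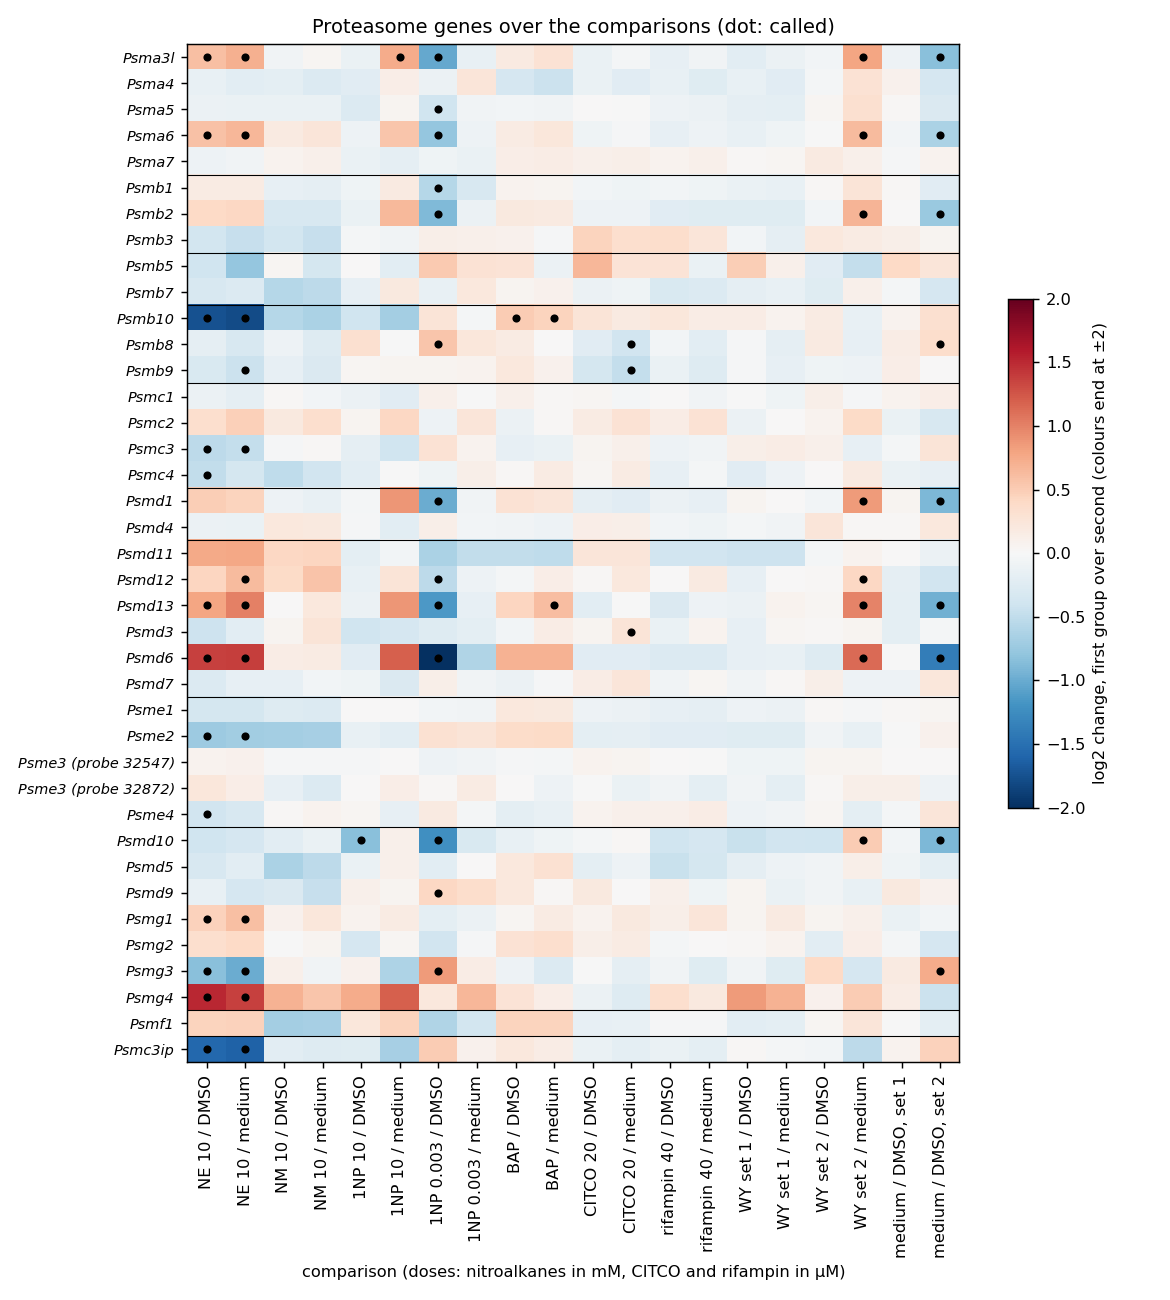
Log2 change (colour, ending at ±2) of each member tested in the set 1 fits (y axis, blocks by role) in 20 comparisons (x axis), first group over second; a black dot marks an adjusted p under 0.05. Dots stand in the columns of NE 10 mM, of 1NP 0.003 mM over DMSO (13 dots), and of WY-14643 over medium and medium over DMSO in set 2, and few in the others.

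The nitroalkanes were also compared directly at matched concentrations. They differ by the length of the carbon chain that carries the nitro group, with a single carbon in NM, a pair in NE and a longer chain in 1NP. NE and NM lay in the same set, and at 10 mM 2 of 39 members differed, where 11.7% of all probes were called. Psmd6 had 106, 82.2 and 79.8 CPM in NE wells, against 36.8, 33.9 and 49.9 CPM in NM wells (1.22 ± 0.24, edgeR adjusted p = 0.0148), and Psmg3 had 27.6, 25.4 and 31.6 CPM in NE wells, against 46.1, 50.3 and 72.9 CPM in NM wells (-0.93 ± 0.25, edgeR adjusted p = 0.0468). Neither gene's groups overlapped. Psmb10 differed by -1.16, with a 95% interval of -1.95 to -0.37, and was not called (edgeR adjusted p = 0.105). Without NM 10 mM replicate 3 and NE 10 mM replicate 2, both of which stood apart, 15 members were called, where 40% of all probes were, among them Psmd6 (1.49), Psmd13 (1.04), Psma3l (0.70), Psmb2 (0.67), Psmb10 (-1.23) and Psmc3ip (-1.62). With any other single well of the 6 left out the count was 0, it was 1 without NE 10 mM replicate 2, and 5 without NM 10 mM replicate 3. At 3 mM 0 members differed (0 at an unadjusted p under 0.05, and 0 by DESeq2; 0.0179% of all probes).

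1NP was compared with NE and with NM through the difference of each from DMSO of its own set. At 10 mM 0 of 39 members differed between 1NP and NE (11 at an unadjusted p under 0.05, and 0 by DESeq2), and 0% of all probes were called. The largest difference in each direction was that of Psmb10 (1.35, 95% interval 0.62 to 2.07, edgeR adjusted p = 0.171) and that of Psmd6 (-1.59). Taken as the difference from medium of each set, Psmb10 differed by 1.1 and Psmd6 by -0.21, neither called, so the value of Psmd6 depended on which control was used. Without the libraries that stood apart (1NP 10 mM replicate 3 and NE 10 mM replicate 2) 18 members were called, where 36.3% of all probes were, among them Psmd6 (-2.40), Psmd13 (-1.28), Psma3l (-1.11), Psmb10 (1.34) and Psmc3ip (1.91), and without 1NP 10 mM replicate 3 alone 10 were. Between 1NP and NM at 10 mM 0 members differed (0 at an unadjusted p under 0.05, and 0 by DESeq2; 0% of all probes), Psmb10 by 0.18 with an interval of -0.70 to 1.06. Without the libraries that stood apart Psma6 was called (-0.63), where 0.421% of all probes were. At 3 mM 0 members differed between 1NP and NE (2 at an unadjusted p under 0.05, and 0 by DESeq2; 0% of all probes) and 0 between 1NP and NM (2 at an unadjusted p under 0.05, and 0 by DESeq2; 0%). The interval of Psmb10 between 1NP and NM includes 0, and a p that misses the threshold does not show that compounds act alike.

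BAP had the highest Psmb10 level of all groups. It was 25.4, 28.9 and 28.4 CPM in BAP wells, against 18.9, 20.5 and 20.6 CPM in medium wells and 16.2, 19.4 and 20.0 CPM in DMSO wells. The BAP wells lay above both controls, by 0.51 ± 0.15 against DMSO (edgeR adjusted p = 0.0283) and 0.44 ± 0.15 against medium (edgeR adjusted p = 0.0366). Psmb10 was the 1 of 39 members called against DMSO, where 9.17% of all probes were called, and against medium 2 members were called, where 19.7% of all probes were. The other was Psmd13, which had 156, 142 and 101 CPM in BAP wells, against 88.0, 87.7 and 80.2 CPM in medium wells (0.62 ± 0.17, edgeR adjusted p = 0.0126). Each of the 2 Psmb10 calls was lost in 7 of 11 alternative settings. Among them were those without any 1 well of the control and without BAP replicate 2 or 3 (0.40 to 0.56). The call of Psmd13 was lost without BAP replicate 1 (0.49) or medium replicate 3 (0.57). Without BAP replicate 3, in which Psmd6 was 28.7 CPM beside 81.7 and 58.7 CPM in the other BAP wells, 4 members were called against DMSO and 6 against medium. Against DMSO the count was 0 without BAP replicate 2 or any 1 DMSO well; against medium it was 1 without BAP replicate 1 or 2 or medium replicate 1 or 2, and 0 without medium replicate 3. Psmb8 and Psmb9 changed by 0.16 and 0.21 against DMSO, not called. Of the NRF2 targets 9 of 14 rose against DMSO and 11 of 14 against medium, and of the antigen presentation and interferon probes 6 of 15 rose against medium, Cxcl10 by 2.5 ± 0.20 and Irf1 by 0.73 ± 0.11, but 1 rose and 1 fell against DMSO.

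With CITCO at 20 µM, 2 immunoproteasome subunits were lower than in medium. Psmb9 had 61.3, 64.3 and 67.5 CPM in CITCO wells, against 102, 72.9 and 97.8 CPM in medium wells (-0.48 ± 0.11, edgeR adjusted p = 0.00272), and Psmb8 had 101, 106 and 114 CPM in CITCO wells, against 129, 141 and 153 CPM in medium wells (-0.38 ± 0.10, edgeR adjusted p = 0.00712). Neither overlapped, and the Psmb8 call was lost without medium replicate 3 (-0.32). Psmd3 of the lid had 123, 116 and 114 CPM in CITCO wells, against 103, 102 and 96.0 CPM in medium wells (0.25 ± 0.08, edgeR adjusted p = 0.0282). The Psmd3 call was lost in 7 of 11 alternative settings. Among them were those without any 1 medium well or without CITCO replicate 1 or 2 (0.22 to 0.27). Psmb9, Psmb8 and Psmd3 were 3 of 39 members, where 14.7% of all probes were called, and 1 without medium replicate 3. Against DMSO 0 members were called (4 at an unadjusted p under 0.05, and 0 by DESeq2; 0.843% of all probes), with Psmb9 at -0.36 and Psmb8 at -0.22. Psmb10 changed by 0.18 against medium, not called. Of the 15 antigen presentation and interferon probes 4 were higher and 1 lower than in medium, and 0 higher and 2 lower than in DMSO. Cxcl10 changed by 2.26 against medium (called) and -0.27 against DMSO (not called), while medium itself differed from DMSO of set 1 by -2.52, and Gbp2 was lower than in both (-0.60 and -0.66).

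CITCO at 10 µM gave 0 calls against DMSO (0 at an unadjusted p under 0.05, and 0 by DESeq2; 0.149% of all probes) and 0 against medium (5 at an unadjusted p under 0.05, and 0 by DESeq2; 2.58%), with 1 against medium without medium replicate 2. For rifampin at 20 µM 0 members were called against DMSO (1 at an unadjusted p under 0.05, and 0 by DESeq2; 2.87% of all probes) and 0 against medium (1 at an unadjusted p under 0.05, and 0 by DESeq2; 0.273%). For rifampin at 40 µM 0 were called against DMSO (3 at an unadjusted p under 0.05, and 1 by DESeq2; 1.69%), 1 without DMSO replicate 3, and 0 against medium (7 at an unadjusted p under 0.05, and 0 by DESeq2; 3.31%). For WY-14643 in set 1, 0 were called against DMSO (3 at an unadjusted p under 0.05, and 0 by DESeq2; 4.88%) and 0 against medium (2 at an unadjusted p under 0.05, and 0 by DESeq2; 5.8%), each 1 without WY-14643 replicate 3. Psmb10 changed by -0.14 to 0.22 in these comparisons.

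Medium and DMSO, the controls themselves, were also compared in each set. In set 1 0 of 39 members were called (1 at an unadjusted p under 0.05, and 0 by DESeq2), where 7.06% of all probes were. In set 2, 2 members were higher and 7 lower in medium than in DMSO, where 11.6% of all probes were higher and 12.4% lower (24% in either direction), so the members' count was near that of all probes, and the median member changed by -0.10. Of the 22 constitutive core and regulatory particle probes tested, 0 were higher and 6 lower. Their median change was -0.26, where the median of all probes was 0.02. Psmd6 had 27.8, 13.4 and 18.3 CPM in medium wells, against 55.3, 44.4 and 45.5 CPM in DMSO wells (-1.39 ± 0.24, edgeR adjusted p = 0.00089). Psmd13 had 61.0, 41.7 and 44.5 CPM in medium wells, against 91.9, 90.0 and 83.9 CPM in DMSO wells (-0.95 ± 0.15, edgeR adjusted p = 0.000182). Psmb2 had 280, 222 and 181 CPM in medium wells, against 350, 354 and 356 CPM in DMSO wells (-0.74 ± 0.12, edgeR adjusted p = 0.000332). None of these groups overlapped. The others lower were Psmd10 (-0.90), Psmd1 (-0.90), Psma3l (-0.84) and Psma6 (-0.64), so that the lower members came from the alpha and beta rings, the base, the lid and 1 chaperone. Higher in medium were the chaperone Psmg3, with 61.1, 75.8 and 95.6 CPM in medium wells, against 39.4, 45.8 and 45.6 CPM in DMSO wells (0.74 ± 0.18, edgeR adjusted p = 0.0055), and Psmb8, with 133, 137 and 138 CPM in medium wells, against 106, 89.5 and 103 CPM in DMSO wells (0.35 ± 0.12, edgeR adjusted p = 0.0461). The Psmb8 call was lost in 8 of 11 alternative settings (0.28 to 0.41 over all 11). Among them were those without any 1 DMSO well or without medium replicate 5 or 6. The other 8 calls held in all 11 alternative settings. The difference between the sets was tested for medium minus DMSO, a test added after the data were seen. It called 3 of 39 members, where 1.03% of all probes were called: Psmd6 (-1.39 ± 0.30, edgeR adjusted p = 0.0406), Psma3l (-0.75, adjusted p = 0.0427) and Psmb2 (-0.75, adjusted p = 0.0372). Without single wells the count ran between 0 and 10: it was 0 without any 1 medium well of set 1, without DMSO replicate 2 or 3 of set 1, without any 1 DMSO well of set 2 or without its medium replicate 5, and 6 and 10 without medium replicate 4 and 6 of set 2. Medium lay in row A and DMSO in row B of both sets, and in set 2 the summed hepatocyte markers were 7382 to 10336 CPM in medium wells, against 11167 to 12349 CPM in DMSO wells; vehicle and row cannot be told apart, and the part of the markers was not tested.

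WY-14643 in set 2 was compared with both controls. Against medium 8 of 39 members were higher and 0 lower, where 8.92% of all probes were higher and 8.02% lower (16.9% in either direction). Of the 22 constitutive core and regulatory particle probes tested, 7 were higher and 0 lower. Their median change was 0.22, where the median of all probes was -0.02. Psmd6 had 43.8, 50.9 and 27.8 CPM in WY-14643 wells, against the medium values above (1.13 ± 0.24, edgeR adjusted p = 0.00548), its lowest well level with the highest medium well. Psmd13 had 90.7, 109 and 75.6 CPM in WY-14643 wells and did not overlap medium (0.99 ± 0.15, edgeR adjusted p = 0.000158). The others were Psmd1 (0.85), Psma3l (0.78), Psmb2 (0.68), Psma6 (0.63), Psmd10 (0.50) and Psmd12 (0.41). The Psmd10 call was lost in 6 of 11 alternative settings and that of Psmd12 in 8 of 11. Among these were the settings without any 1 WY-14643 well or medium replicate 4 or 5 (0.40 to 0.54 and 0.33 to 0.47). Against DMSO 0 members were called (2 at an unadjusted p under 0.05, and 0 by DESeq2; 0.901% of all probes). The comparisons of WY-14643 and of DMSO with medium share the 3 medium wells, and those of 1NP share its controls with both.

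**Figure D4:**
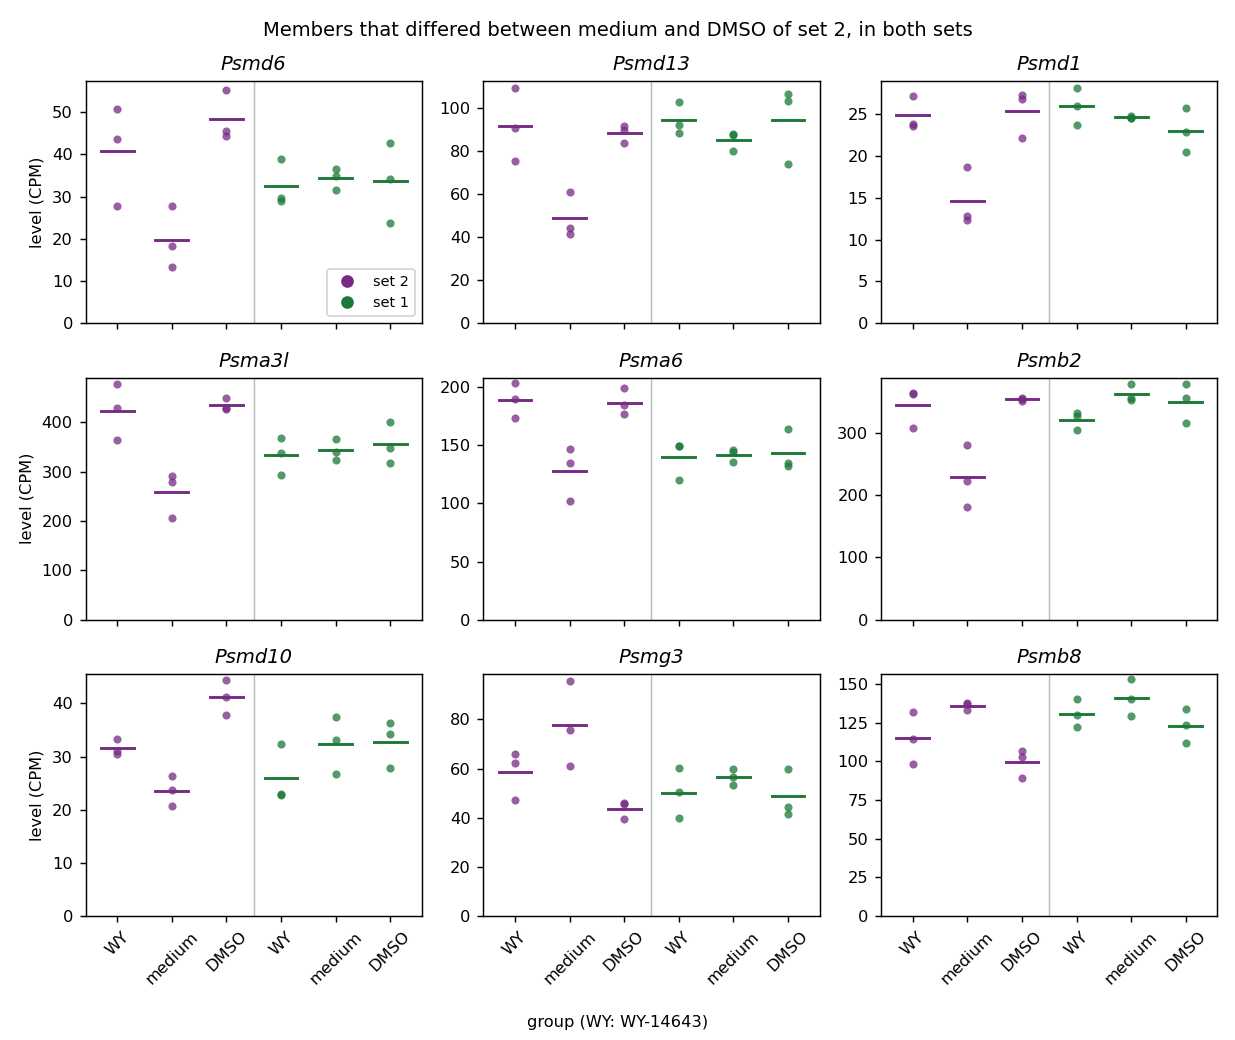
Level in CPM (y axis, from 0) of the 9 members called between medium and DMSO of set 2, in WY-14643, medium and DMSO wells of set 2 (purple) and of set 1 (green); points are wells, bars are means of 3 wells. In set 2 the medium wells of Psmd6, Psmd13, Psmd1, Psma3l, Psma6, Psmb2 and Psmd10 lie below the DMSO wells, and in set 1 they overlap.

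The members lower in medium of set 2 also varied together between wells of one and the same group. They were chosen for 1 direction, by a test that used the spread within groups of set 2 wells. Those wells are among the libraries used here, so this is no independent support. Over the 105 libraries, each taken as its deviation from the group mean in log2 CPM, the 21 pairs among these 7 genes had Pearson correlations between 0.33 and 0.88 with a median of 0.69, and between 0.56 and 0.90 with a median of 0.79 over the 100 libraries that did not stand apart. The 378 pairs among the other 28 members at 10 CPM or more ran between -0.80 and 0.87 with a median of 0.06. High correlations were thus not particular to the 7 genes: Psmb7 had 0.87 with Psme2 and 0.83 with Psmc4. For these 378 pairs the libraries that stood apart were not left out. Psmb8, Psmb9 and Psmb10 had correlations between 0.39 and 0.62. These are descriptions over wells that share library size and normalization. Among the 35 members at 10 CPM or more the spread within groups was largest for Psmd6 (SD 0.52 log2) and smallest for the base ATPase Psmc1 (0.09). Their median was 0.20, against 0.24 over 7618 probes at that level. NE 0.01 mM replicate 3 held the highest level of all 105 libraries for Psma7 (935 CPM), Psme1 (727 CPM), Psmb1 (391 CPM), Psmd7 (229 CPM), Psmd3 (199 CPM) and Psmd9 (146 CPM).

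**Figure D5:**
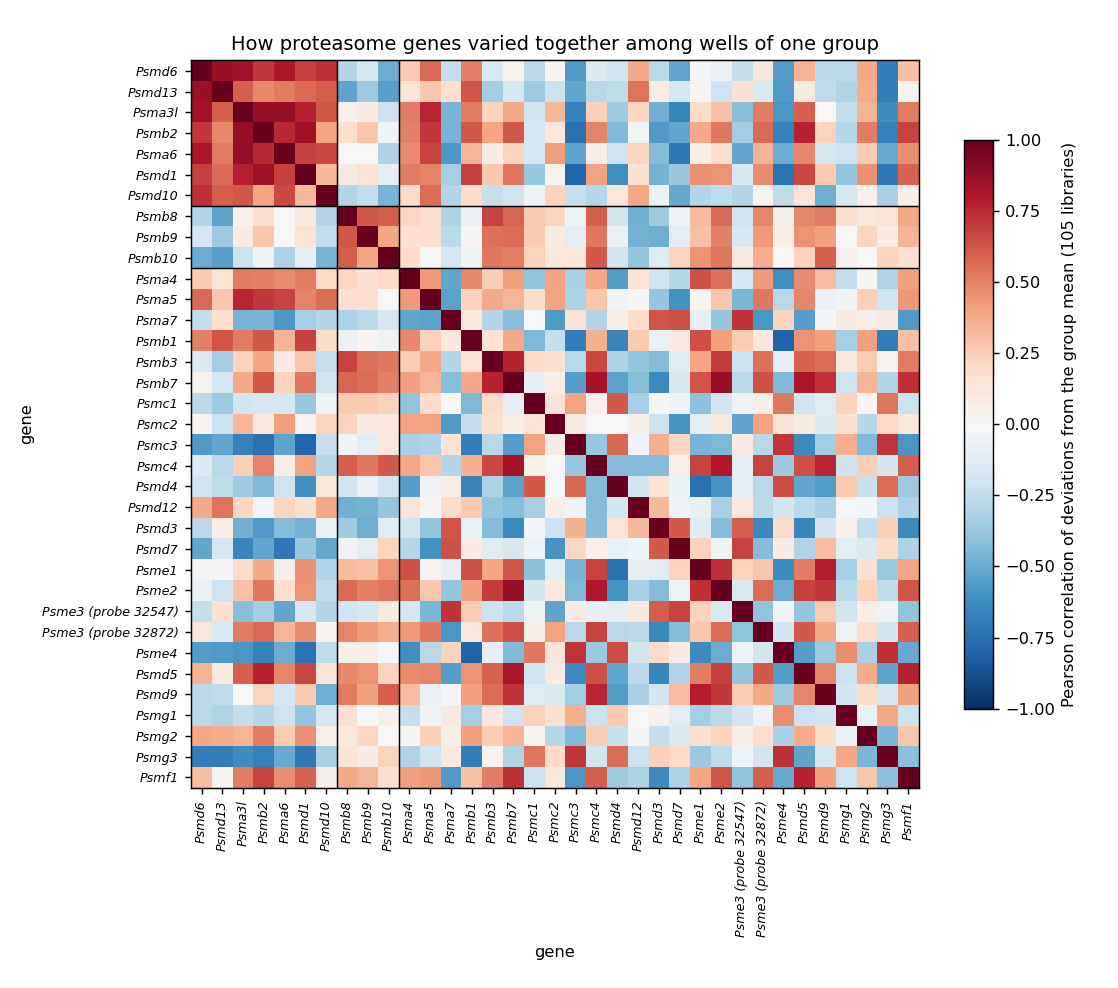
Pearson correlation (colour) between members of the deviation of log2 CPM from the group mean over 105 libraries, for the 35 members at 10 CPM or more on both axes. The 7 members lower in medium of set 2 form the first block (median 0.69) and Psmb8, Psmb9 and Psmb10 the second (0.39 to 0.62).

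Outside the rule, the probes whose 24 group means of set 1 followed the mean of Psmb8, Psmb9 and Psmb10 most closely by Spearman correlation were Taf6 (0.92), Ghdc (0.86), Adprhl2 (0.84), Ddx46 (0.84) and Bckdk (0.83). For the mean of the 9 constitutive core particle probes at 10 CPM or more they were Ndufa1 (0.91), LOC498750 (0.90), Med6 (0.90), Aga (0.89) and Spryd7 (0.88). The 24 points share their normalization, and the NE 10 mM group is 1 of them.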

How the data were processed

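The authors deposited raw TempO-Seq counts, whole numbers of reads per detector probe and library, not normalized. The counts of both sets were in 1 table. FastQC, Bowtie, R 3.5.3 and DESeq2 1.28.1 are named per the submitters' processing notes; no source used here states aligner settings or the panel version. Total counts per library ran from 5475419 to 11122665, which gives a floor of 3 counts between 0.27 and 0.548 CPM.

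Levels are CPM, each count divided by its library's sum and rescaled. Groups were compared with edgeR 4.0.16 (quasi-likelihood F-test, R 4.3.3, limma 3.58.1) after filterByExpr (minimum count 10, minimum total 15) and TMM normalization, with each fit holding 1 nitroalkane at 8 concentrations and its controls, or the other compounds of a set. Direct comparisons held only the libraries compared. Slopes used concentration ranks 1 to 8. P-values were adjusted by Benjamini-Hochberg over all probes, with a threshold of 0.05. Every share of all probes given is that of edgeR at this threshold. Counts at an unadjusted p under 0.05 and counts by DESeq2 have no such share beside them and are not read against the background. The fit was also run on simulated counts in which wells varied independently. That run does not bear on libraries that stood apart or on wells that varied together.

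At NE 10 mM Psmb5, Psmb7, Psmb8, Psmb9 and Psmb10 were all named, and in other comparisons only some of them. Up to 5 called members in each direction with a mean of at least 10 CPM were set to be named in each comparison. A few others were named after their values were seen. The members and lists were chosen with earlier results of these data known. Alternatives were RLE normalization, DESeq2 1.42.0, no filter, only the libraries compared, a replicate block, other slope baselines, leaving out each well and leaving out the 5 libraries that stood apart. The last, and the comparison between sets, were added after the data were seen. Where a call is said to be lost without named wells, other settings could end it too. At NE 10 mM Psme4 against DMSO was lost in 7 of 12 settings, and Psmb9 against medium in 5 of 12. The values of some genes of a related list are not reported here.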

Additional observations from a re-analysis of the deposited data

Results flagged for a closer look

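NE and NM differed at 10 mM, by a direct test of the difference, in Psmd6 (log2 change 1.22) and in Psmg3 (-0.93). Both compounds were measured in set 1, and neither call was kept when NE replicate 1 or 3 or NM replicate 1 or 2 was left out.

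The difference between medium and DMSO differed between the sets past the threshold for Psmd6 (-1.39, set 2 minus set 1), Psmb2 (-0.75) and Psma3l (-0.75). Each of these calls was lost in 9 of 15 settings, all of them with a single well left out. The same genes are among the members lower at 1NP 0.003 mM than in DMSO of set 2, a comparison that shares those DMSO wells. Vehicle and plate row cannot be told apart in either set.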

How the results depend on the processing

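Outside the summed tests from 0.003 to 1 mM, no called member changed direction under any alternative run. Changes that were not called could: at NM 10 mM against DMSO, Psmb8 changed by -0.11 and Psmb9 by -0.17. Without the libraries that stood apart these were 0.11 and 0.01. Counts of members called are given first as the range over single wells left out. For NE at 10 mM it was 9 to 13 against DMSO and 10 to 16 against medium. In set 2 it was 8 to 12 for medium against DMSO and 6 to 11 for WY-14643 against medium. For NE at 3 mM it was 0 to 4 against DMSO and 0 to 6 against medium. For 1NP it was 0 to 1 at 3 mM against medium, 0 to 1 at 10 mM against DMSO and 0 to 4 against medium. For BAP it was 0 to 4 against DMSO and 0 to 6 against medium, for CITCO against medium 0 to 1 at 10 µM and 1 to 3 at 20 µM, for rifampin at 40 µM against DMSO 0 to 1, and for WY-14643 of set 1 it was 0 to 1 against each control. Between compounds at 10 mM it was 0 to 5 for NE and NM and 0 to 10 for 1NP and NE, and between the sets 0 to 10. From 0.003 to 1 mM it was 0 for NE against DMSO in each case, 2 to 39 for 1NP against DMSO and 0 to 2 against medium. For slopes it was 0 to 2 (NM), 0 to 6 (NE) and 0 to 1 (1NP).

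With DESeq2 the counts were 1 for NM at 10 mM against medium, NE at 3 mM against DMSO, 1NP at 3 mM against DMSO, rifampin at 40 µM against DMSO and the 1NP slope, 2 and 4 for 1NP at 10 mM against DMSO and medium, 4 for NE and NM at 10 mM, 6 between the sets, 3 for low 1NP against medium and 6 for the NM slope. With no filter on low counts they were 1 for NE at 3 mM against DMSO and against medium, 8 for 1NP at 10 mM against medium, 3 and 4 for BAP against DMSO and medium, 1 for CITCO at 10 µM against medium, 3 for 1NP and NE at 10 mM, 7 between the sets, 6 and 4 for low NE against DMSO and medium, 13 for low 1NP against medium and 7 for the NE slope. With only the libraries compared they were 1 for NE at 3 mM and 6 for 1NP at 3 mM against DMSO, 0 and 0 for 1NP at 10 mM, 0 and 1 for BAP against DMSO and medium, 2 for CITCO at 10 µM against medium, 2 for low NM against DMSO, 15 and 12 for low NE, and 43 and 8 for low 1NP. Without the libraries that stood apart they were 1 for NM at 3 mM against each control, 1 for NM at 10 mM and 0 for 1NP at 10 mM against medium, 15 for NE and NM, 18 for 1NP and NE and 1 for 1NP and NM at 10 mM, 3 for low NM against DMSO and 4 for the NM slope. RLE normalization gave 1 for NE and NM at 10 mM. With medium as the lowest rank the slopes gave 5 (NM) and 8 (NE), and with DMSO 7 (NE). The cause of these changes was not tested. In set 1 the deviations of same-numbered wells had a median correlation of 0.01, 0.01 and 0.03, while single pairs ran from -0.90 to 0.92. Differently numbered wells and set 2 were not examined, so this cannot decide whether the numbers pair wells. A replicate block gave 0 for NE and NM at 10 mM and 1 for rifampin at 40 µM against DMSO. Psmd2, Psmc6, Psma8 and Psmb11 lay near the floor of detection, and the cause was not tested. Other base probes were far higher in the same libraries, with a mean of 413 CPM for Psmc1 against 0.064 CPM for Psmc6.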
